A study of Mus musculus with 4 samples.

Results

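The 10 genes described here encode receptors of the natural killer (NK) gene complex, a cluster of lectin-like receptor genes on mouse chromosome 6. They were chosen by symbol, without reference to their values, from the 31053 genes listed in the count matrices. The Ly49 members were Klra1 (Ly49A), Klra3 (Ly49C), Klra7 (Ly49G) and Klra9 (Ly49I), which are inhibitory, and Klra4 (Ly49D) and Klra8 (Ly49H), which are activating. The other members were Klrb1c (NK1.1), Klrc1 (NKG2A), its partner chain Klrd1 (CD94) and Klrk1 (NKG2D). All lie between positions 128778485 and 130386874 of chromosome 6 (GRCm38, GENCODE annotation), and all are protein-coding.

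Single-cell RNA-seq was done on CD45-enriched cells from orthotopic B6KPC3 pancreatic tumours in C57BL/6 mice. The AT38 group received the compound AT38 at 30 mg/kg per day in 1% carboxymethyl cellulose, injected intraperitoneally in a pair of daily doses for 7 days, starting 7 days after implantation. The vehicle group received the carboxymethyl cellulose solution alone on the same schedule. Each group had 2 libraries, and each library pooled the tumours of 4 mice, so the spread between libraries is a spread between pools. All mice carried the same tumour line, and no group without a tumour was analysed here. After quality filters and removal of likely doublets, 14242 cells remained, 2909 to 4723 per library, with 3005 to 4154 median unique molecular identifiers (UMIs) per cell. Pairs of libraries shared 0 to 4 cell barcodes.

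NK cells use germline-encoded receptors to survey target cells. Inhibitory Ly49 receptors bind classical MHC class I and recruit phosphatases, and the CD94 and NKG2A pair does the same on the non-classical molecule Qa-1, encoded by H2-T23. Activating Ly49 receptors signal through the adaptor encoded by Tyrobp, and NKG2D, which binds stress-induced ligands, signals through Hcst and Tyrobp. In mice each NK cell expresses its own subset of Ly49 genes, and some T cells with memory or innate features carry these receptors too.

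Cells were grouped by clustering in which no Klr gene was used, and clusters were named from marker genes. NK-like cells numbered 562, with 157 and 165 in the AT38 libraries and 85 and 155 in the vehicle libraries. Ncr1 and Cd3e were part of the naming rule, and all genes but the Klr genes could enter the clustering, so the levels that follow describe the class and do not check it. Ncr1, a receptor of NK cells, averaged 216 ± 28.6 CPM (the UMIs of a gene scaled to a fixed total of UMIs of the class in a library; SD over 4 libraries), against 0.24 ± 0.28 CPM in CD8 T-like cells, while Cd3e, a T cell receptor subunit, averaged 68.5 ± 22.1 CPM against 750.2 ± 62.2 CPM. Trac, the T cell receptor alpha constant gene, averaged 74.5 ± 20.4 CPM in NK-like cells and 850.1 ± 29.6 CPM in CD8 T-like cells. A cluster of 373 cells is called the other T-like cluster. Its leading genes included Ly6c2, Trdc and Fcer1g, and also the Klr genes Klra7, Klra1, Klra6 and Klrb1c. Of its cells 75.9% had a Cd3e UMI, 67.6% a Trac UMI, 22.5% a Trdc UMI and 3.49% an Ncr1 UMI, and it matched no single T cell class.

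The activating Klra4 and Klra8 differed from the inhibitory Ly49 genes in where they were detected, so the RefSeq sequences around their annotated starts are shown beside that of Klra7 (GRCm38.p6, all on the minus strand, written from 250 bases before to 50 bases after the start). The windows are chr6:130067222-130067521 for Klra4, chr6:130129849-130130148 for Klra8 and chr6:130233273-130233572 for Klra7. Capitals mark the bases that differ from, or have no partner in, the Klra4 window in a pairwise global alignment, 41 of 300 bases for Klra8 and 70 of 300 bases for Klra7.
Klra4: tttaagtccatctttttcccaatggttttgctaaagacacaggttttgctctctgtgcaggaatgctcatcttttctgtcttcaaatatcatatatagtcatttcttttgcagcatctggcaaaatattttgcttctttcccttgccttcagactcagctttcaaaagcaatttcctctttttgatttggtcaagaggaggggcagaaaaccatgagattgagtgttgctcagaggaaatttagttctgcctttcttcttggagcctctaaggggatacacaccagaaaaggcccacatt
Klra8: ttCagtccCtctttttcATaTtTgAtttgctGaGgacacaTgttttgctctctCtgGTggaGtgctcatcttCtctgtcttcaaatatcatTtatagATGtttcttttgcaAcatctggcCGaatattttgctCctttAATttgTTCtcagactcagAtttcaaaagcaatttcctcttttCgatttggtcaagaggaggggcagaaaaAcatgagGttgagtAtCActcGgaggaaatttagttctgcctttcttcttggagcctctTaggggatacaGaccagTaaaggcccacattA
Klra7: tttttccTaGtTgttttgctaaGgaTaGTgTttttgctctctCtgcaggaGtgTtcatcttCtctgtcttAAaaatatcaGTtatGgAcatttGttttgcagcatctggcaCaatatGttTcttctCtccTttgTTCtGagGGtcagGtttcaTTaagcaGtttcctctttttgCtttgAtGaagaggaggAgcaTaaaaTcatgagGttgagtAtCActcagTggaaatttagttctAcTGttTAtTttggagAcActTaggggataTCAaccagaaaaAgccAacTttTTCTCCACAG

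The Klra8 window was 86.3% identical to that of Klra4, and the Klra7 window was 76.7% identical to it. RefSeq gave 2 starts each for Klra7 and Klra8, and the window most like that of Klra4 was taken, which favours high identity. The closest pair among the 9 members with a window was Klra3 and Klra9, at 90.3%, and the windows of Klra1, Klrb1c, Klrc1 and Klrk1 were between 44.0% and 54.0% identical to those of Klra4 and Klra8. On either strand, the RUNX-type motif TGTGGT was present in the windows of Klra1, Klrb1c, Klrc1 and Klrk1, and in 16.8% of all 32851 windows in the table. The TCF-type motif CTTTGA was present in those of Klra7 and Klrk1 and in 5257 of the 32851 windows, and the ETS-type motif GGAAGT in that of Klrb1c and in 23.8% of all windows. None of the 3 motifs contains another, and a match is a match of letters only.

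Ly49 genes resemble each other, and how reads that match several genes were counted is not given in the sources used here. Of the 50-base stretches within the last 500 bases of the GENCODE transcripts, where this 3′ assay reads, 4.66% for Klra4, 13.1% for Klra8, 6.96% for Klra1, 22.1% for Klra7, 31.5% for Klra3 and 49.4% for Klra9 also occurred in another annotated gene. For Klrb1c the share was 17.8%, for Klrc1 it was 43.5%, mostly shared with Klrc2, and for Klrd1 and Klrk1 it was 0. The levels of Klra3, Klra9 and Klrc1 are therefore the least certain, and which of several like genes a read came from cannot always be told.

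The activating Ly49 genes were high in NK-like cells and close to absent in every T-like class. Klra4, whose product recognises certain MHC class I molecules, measured 560.3 and 467 CPM in NK-like cells of the AT38 libraries, and 482 and 334 CPM in those of the vehicle libraries. Klra8, whose product recognises a cytomegalovirus protein, measured 539 and 539.7 CPM in the AT38 libraries and 383 and 355 CPM in the vehicle libraries. In the other T-like cluster Klra4 totalled 5 UMIs (0 to 8.64 CPM over the 4 libraries) and Klra8 also 5 UMIs (0 to 5.93 CPM). In CD8 T-like cells the totals were 4 and 1 UMIs in 1366 cells, and in 305 naive-like T cells both were at 0, where 3 UMIs would be 8.90 to 15.02 CPM of Klra4 or Klra8 per library.

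**Figure D1:**
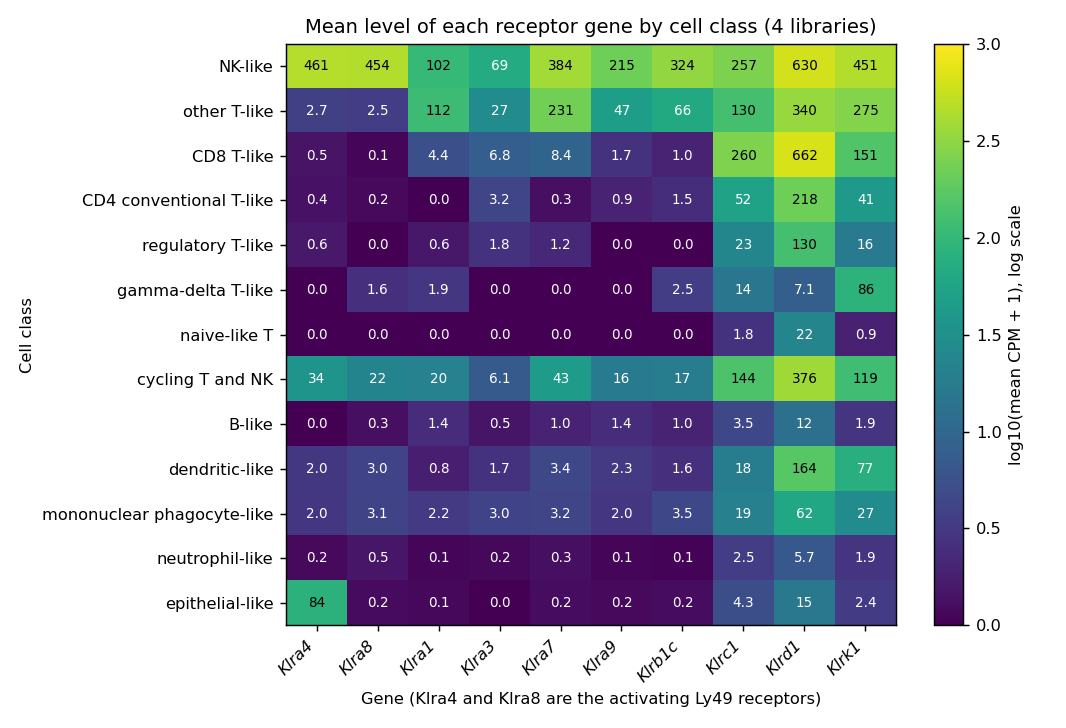
Mean CPM over the 4 libraries of each receptor gene (columns) in each cell class (rows), printed in the cell and coloured on a log10(CPM + 1) scale. Klra4 and Klra8 are bright in NK-like cells and near 0 in all T-like classes, Klra4 shows a level of 83.6 CPM in epithelial-like cells, and Klrc1, Klrd1 and Klrk1 extend across T cell classes.

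The inhibitory Ly49 genes were shared between NK-like cells and the other T-like cluster. Klra7 averaged 384 ± 27.3 CPM in NK-like cells, 231 ± 39.4 CPM in the other T-like cluster and 8.37 ± 5.41 CPM in CD8 T-like cells (SD, 4 libraries), and the ranges of these classes did not overlap. Klra1 averaged 102 ± 26.7 CPM in NK-like cells and 112 ± 21.7 CPM in the other T-like cluster, with overlapping ranges. Klra9 was higher in NK-like cells (215 ± 42.0 CPM) than in the other T-like cluster (47.2 ± 12.5 CPM) without overlap, and Klra3 overlapped between NK-like cells (68.5 ± 29.9 CPM) and the cluster (26.6 ± 8.81 CPM). Below NK-like cells and this cluster came cycling T and NK cells, with 42.7 ± 19.7 CPM of Klra7 and 20.2 ± 12.4 CPM of Klra1, and B-like cells were at 0.49 to 1.43 CPM for the 4 inhibitory genes.

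Detection per cell gave the same split at equal depth. Each cell was thinned to 1000 UMIs, which left 552 NK-like and 372 other T-like cells. At this depth 25.2% of NK-like and 0.27% of other T-like cells had a Klra4 UMI, and 26.8% of NK-like and 0.27% of other T-like cells had a Klra8 UMI. For Klra7 the shares were 22.5% and 18.5%, and for Klra1 they were 7.07% and 8.60%. B-like cells, thinned the same way, gave 0 to 0.41% for the 6 Ly49 genes, a measure of background. Before thinning, 35.9% of 562 NK-like cells had a Klra4 UMI and 47.0% a Klra7 UMI.

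**Figure D2:**
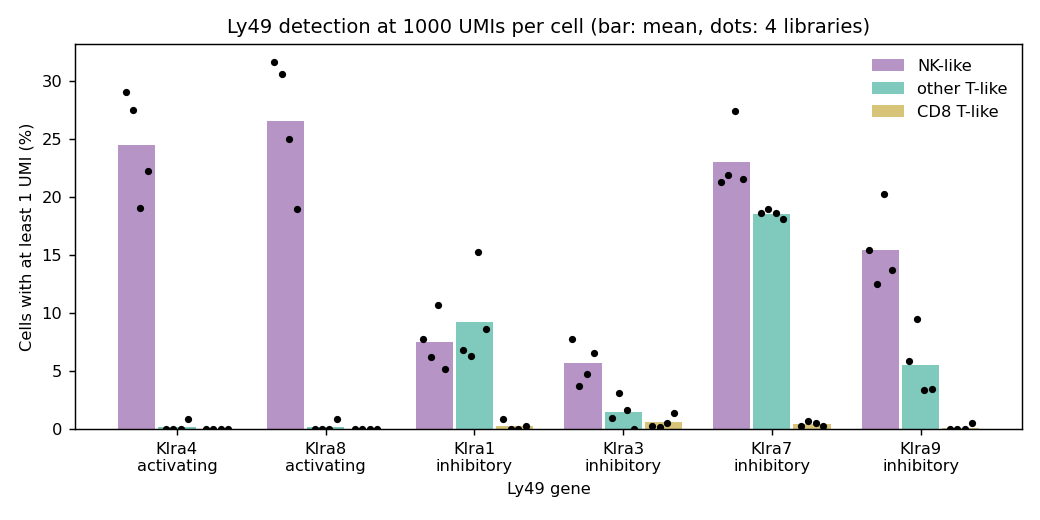
Percent of cells with at least 1 UMI of each Ly49 gene after thinning to 1000 UMIs per cell, in NK-like, other T-like and CD8 T-like cells. Bars are means of the libraries and dots the 4 libraries, drawn in the order AT38, AT38, vehicle, vehicle. The activating genes Klra4 and Klra8 have tall bars in NK-like cells only among the 3 classes drawn, whereas Klra1 and Klra7 have bars of like height in the other T-like cluster.

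The other T-like cluster was mixed, and its Ly49 genes were found across its fractions. Cells with a Cd8a or Cd8b1 UMI made up 28.2% of it and had 234 CPM of Klra7 and 46.8 CPM of Klra1. Cells with gamma-delta T cell receptor UMIs (Trdc or Tcrg-C1) and no Cd8 made up 25.5%, with 118 CPM of Klra7 and 126 CPM of Klra1. The remaining 46.4% had 288 CPM of Klra7 and 159.9 CPM of Klra1, and 78.0% of them had a Trac UMI. Klra4 had 0 UMIs in the last 2 of these fractions, and Klra8 had 1 UMI in each. Klra6, another inhibitory Ly49 gene, was higher in the cluster (83.9 ± 17.8 CPM) than in NK-like cells (23.5 ± 7.61 CPM), with no overlap between libraries.

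Klrb1c, the NK1.1 antigen, followed the NK-like class. It averaged 324 ± 33.1 CPM there, 65.6 ± 20.5 CPM in the other T-like cluster and 0.99 ± 0.32 CPM in CD8 T-like cells. Klrk1, the NKG2D receptor that also costimulates CD8 T cells, averaged 451 ± 83.4 CPM in NK-like cells, 275 ± 35.7 CPM in the other T-like cluster and 151 ± 16.2 CPM in CD8 T-like cells. The ranges of these classes did not overlap for either gene. Gamma-delta T-like cells had 85.8 ± 36.6 CPM of Klrk1 and CD4 conventional T-like cells 41.0 ± 6.21 CPM.

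The CD94 and NKG2A genes were as high in CD8 T-like cells as in NK-like cells. Klrc1 averaged 257 ± 25.6 CPM in NK-like and 260 ± 24.5 CPM in CD8 T-like cells, and Klrd1 averaged 630 ± 50.6 and 662 ± 21.9 CPM, both with overlapping ranges. Within CD8 T-like cells Klrc1 was uneven: it averaged 347 ± 42.6 CPM in the sub-cluster led by Cd8a, Gm156, Cd8b1 and Itgae (an integrin of resident T cells), and 169 ± 48.1 CPM in the one led by Ly6c2, Gzma and Gzmk. Naive-like T cells had 1.78 ± 2.11 CPM of Klrc1 and 22.4 ± 13.3 CPM of Klrd1.

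Klrd1 and Klrk1 were also measured in dendritic-like cells. In the dendritic cluster led by Cd209a, Klrd1 measured 263 and 414 CPM in the AT38 libraries and 428 and 306 CPM in the vehicle libraries, and at least 67.3% of its cells had a UMI in every library. The groups overlapped. Cd3e in that cluster averaged 86.9 ± 37.9 CPM and Klrc1 15.5 ± 9.12 CPM, against 750.2 and 260 CPM in CD8 T-like cells. Klrk1 averaged 96.7 ± 17.6 CPM in the Xcr1 dendritic cluster, and 55.4% to 79.2% of its cells had a UMI. Its range overlapped those of the Cd209a cluster (90.8 ± 17.0 CPM) and of the cluster led by Fscn1 (78.8 ± 10.7 CPM). The remaining dendritic cluster, led by Plet1, was lower, at 50.2 ± 16.8 CPM of Klrk1. These dendritic-like cells were deeper than lymphocytes, with a median of 11346 UMIs or more per cell, and their shares were not thinned.

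Klra4 was also detected in epithelial-like cells, a class of 220 cells that the CD45 enrichment had not removed. It measured 59.6 and 155 CPM in the AT38 libraries, from 40 and 35 cells, and 44.6 and 75.4 CPM in the vehicle libraries, from 70 and 75 cells. It was seen in all 4 libraries, and the groups overlapped. Of 220 epithelial-like cells 64 (29.1%) held its 550 UMIs, with up to 80 in a cell, and the 5 highest cells of each library held between 64.8% and 88.1% of that library's UMIs.

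Klra8, Klra7 and Ncr1 did not accompany Klra4 in these cells. The other Ly49 activator, Klra8, had 2 UMIs in all epithelial-like cells, Klra7 had 2, and Ncr1 had 0. Klra4 thus had 275 UMIs for each Klra8 UMI there, against 0.99 in NK-like, 1.62 in cycling, 0.68 in dendritic-like and 0.60 in mononuclear phagocyte-like cells. Klrd1 had 117 UMIs in epithelial-like cells and Klrc1 had 34. Tyrobp was detected in 31.25% of cells with Klra4, at 31.3 CPM, and in 19.9% of cells without, at 71.0 CPM. Gzma was detected in 4.69% and 1.28%, at 1.51 and 2.95 CPM. Klra4 shares few 3′ stretches with other annotated genes, as given above, and no unannotated transcript was examined.

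Among epithelial-like cells, those with a Klra4 UMI had keratin UMIs more often and at a lower level per UMI. Krt8 was detected in 95.3% of them, at 910 CPM, and in 78.8% of cells without Klra4, at 1987 CPM. Krt18 was at 854 CPM in cells with Klra4 and 1553 CPM in cells without, and Krt19 at 329.6 and 684 CPM. Epcam was detected in 3.12% and 16.7%. Twist1, a mesenchymal transcription factor, was at 127 CPM in cells with Klra4 and 21.8 CPM in cells without it. Timp1 was at 325 and 78.9 CPM, and the gastric-type secretory genes Tff1 and Tff2 were lower, at 43.1 against 420.0 CPM and 140.2 against 1327 CPM. Median depth also differed, 39248.5 UMIs in cells with Klra4 and 3461.5 UMIs in cells without. Its part in these contrasts was not tested, and high UMI counts are also a mark of doublets. Ptprc, the CD45 gene, was detected in 35.9% of cells with Klra4, at 28.5 CPM, and in 25.6% of cells without, at 72.5 CPM.

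**Figure D3:**
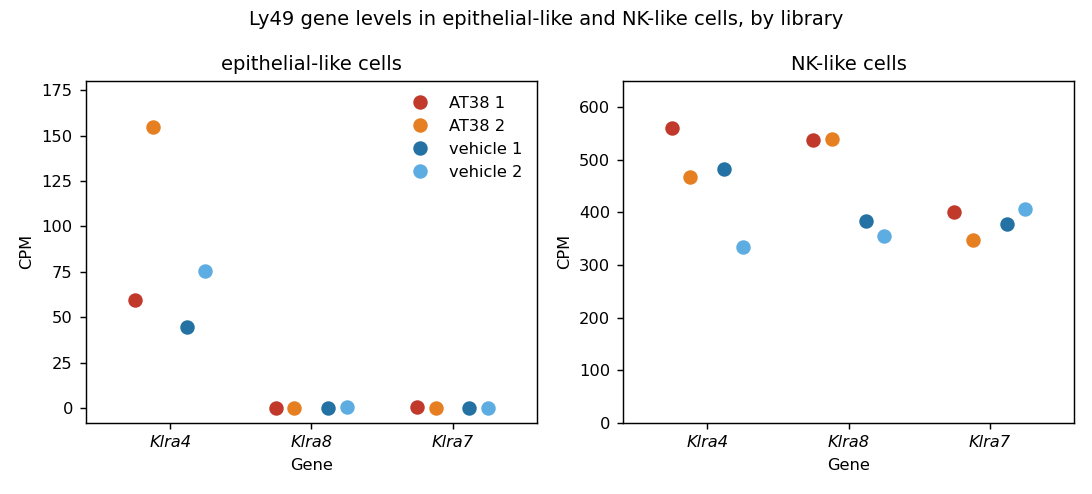
CPM of Klra4, Klra8 and Klra7 in epithelial-like cells (left) and NK-like cells (right), 1 dot per library, AT38 libraries left of vehicle libraries within each gene. In epithelial-like cells Klra4 lies between 44.6 and 155 CPM while Klra8 and Klra7 lie near 0, whereas in NK-like cells all 3 genes are high.

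Ligands of these receptors were measured in the same cells. H2-T23, which encodes Qa-1, the ligand of CD94 with NKG2A, averaged 102 ± 27.6 CPM in epithelial-like cells and 310.5 ± 22.1 CPM in NK-like cells. H2-K1 and H2-D1 encode classical MHC class I molecules, the kind that inhibitory Ly49 receptors bind. Which of these members bind the products found in this strain was not examined. The 2 genes averaged 489 ± 151 and 476 ± 110.5 CPM in epithelial-like cells, against 3685 ± 181 and 2263 ± 76.3 CPM in NK-like cells. Of the NKG2D ligands, Ulbp1 averaged 8.49 ± 4.59 CPM and Raet1e 1.59 ± 1.69 CPM in epithelial-like cells, against 13.7 ± 3.04 CPM of Ulbp1 in NK-like cells.

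Within NK-like cells, Ly49 genes were often found together. At 1000 UMIs, 59 of 552 cells held both Klra4 and Klra8, where independent detection within each library would give 38.1, a ratio of 1.55 that was above 1 in all 4 libraries. The pair Klra3 and Klra8 had a ratio of 1.88 from 16 cells, also above 1 in all 4 libraries (1.298 at 2000 UMIs, in 3 of 4), and Klra1 with Klra7 one of 1.57 from 14 cells. Some pairs share 3′ stretches: Klra8 with Klra3 and with Klra9, Klra3 with Klra9, and Klra1 with Klra4. The part of this sharing in the ratios was not tested. Of the 15 Ly49 pairs 10 had a ratio above 1, with a median of 1.34, and at 2000 UMIs there were 13. Klra1 with Klra8 was the other way, at 0.66 from 7 cells and below 1 in every library, but it stood at 0.97 at 2000 UMIs and at 1.04 with no thinning.

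Klrc1 was found apart from most Ly49 genes. Cells with both Klrc1 and Klra7 numbered 9 against 22.0 expected (ratio 0.41), those with Klrc1 and Klra4 11 against 24.6 (0.45), and those with Klrc1 and Klra8 14 against 26.7 (0.52). These 3 ratios were below 1 in all 4 libraries, and at 2000 UMIs they were 0.60, 0.43 and 0.56. Klra9 was an exception at 1000 UMIs, with 15 cells against 14.8 (1.02), and stood at 0.80 at 2000 UMIs. Klrc1 with Klrb1c had a ratio of 1.16. These are descriptions of cells that share 4 libraries, with no test, and no cell is a replicate.

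**Figure D4:**
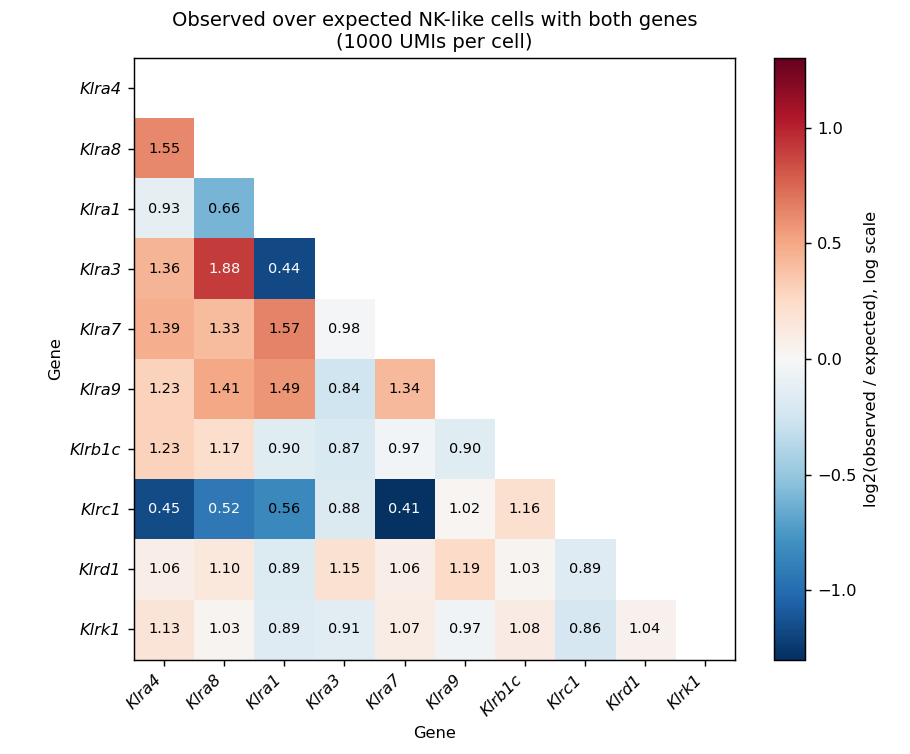
Observed number of NK-like cells with UMIs of both genes divided by the number expected from independent detection within libraries, at 1000 UMIs per cell, printed in each square and coloured on a log2 scale. Squares among the Ly49 genes are mostly red (above 1), the exceptions all being pairs that include Klra1 or Klra3. The Klrc1 squares are lowest (below 1, blue) for Klra1, Klra4, Klra7 and Klra8. They are also below 1 for Klra3 (0.88), Klrd1 (0.89) and Klrk1 (0.86).

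The same axis was seen with genes of NK maturation and residence. Of 302 NK-like cells with a Gzma UMI (granzyme A), 77.8% had at least 1 Ly49 UMI, against 38.4% of 250 cells without, and 11.3% against 25.2% had Klrc1. For Eomes, a transcription factor of conventional NK cells, the Ly49 shares were 75.6% with and 52.9% without it. Cells with Il7r, the interleukin 7 receptor of innate lymphoid cells, had fewer: 20% of 30 cells, against 62.3% of 522 without, and 43.3% against 16.1% had Klrc1. Cells with Cxcr6, a receptor of resident lymphocytes, gave 20.8% of 24 cells against 61.7%. Each of these Ly49 contrasts had the same direction in 4 of 4 libraries.

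The mean number of detected Ly49 genes per NK-like cell depended on depth, at 1.02 with 1000 UMIs, 1.51 with 2000 UMIs and 1.83 with no thinning. At 1000 UMIs the mean number of the 6 genes was 1.129 and 1.025 in the AT38 libraries, and 1.07 and 0.88 in the vehicle libraries. The groups overlapped. Over all libraries 221 of 552 cells had none, 29.2% had 1, 21.0% had 2 and 9.78% had 3 or more. Detection rose with depth, and at 2000 UMIs 30.5% had none. In the other T-like cluster 69.9% had none and 0.27% had 3 or more at 1000 UMIs, and 56.6% had none at 2000 UMIs.

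Levels of genes outside the 10 were compared over 28 points (7 classes in 4 libraries, which share libraries and class sizes) among 7663 genes, as a description of likeness. Klra4, Klra8 and Klra9 were most like Ncr1 (Pearson r = 0.92, 0.91 and 0.95). Klra7 was most like Klra6 (0.94), and Klra1 most like Rbpms (0.93) and Klra6 (0.93). Klra3 was most like Samd3 (0.94), Klrb1c like Fcer1g (0.94), Klrc1 like Ifitm10 (0.95), Klrd1 like Lrrk1 (0.92) and Klrk1 like Zyx (0.90). Ncr1 was used to name the NK-like class.

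Treatment was compared on UMIs summed per library and class, 2 AT38 against 2 vehicle libraries, with edgeR's quasi-likelihood test and Benjamini-Hochberg adjustment over all genes tested in the class. A gene was called at an adjusted p under 0.05. In NK-like cells all 10 members were tested and 0 were called, against 0.0438% of all 6853 genes, and 2 members had an unadjusted p under 0.05, against 5.92% of all genes. DESeq2 also called 0 members.

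Klra8 came nearest to a call in NK-like cells. Its 2 AT38 values, 539 and 539.7 CPM, lay above both vehicle values, 383 and 355 CPM, and the groups did not overlap. The log2 fold change was 0.57 ± 0.12 (SE), with an adjusted p of 0.0934 in edgeR's quasi-likelihood test, the fourth smallest p of 6853 genes. After thinning to 1000 UMIs, 31.6% and 30.6% of NK-like cells in the AT38 libraries had a Klra8 UMI, and 25% and 19.0% in the vehicle libraries (exact permutation test, two-sided p = 0.3333, the smallest that 2 against 2 allows). The call depended on the processing: with the replicate number as a block the adjusted p fell below the threshold, and so it did without vehicle replicate 1 and with no filter on low counts, whereas under the other 11 alternatives it did not. The lowest and highest adjusted p over the 14 alternatives were 0.0041 and 1.00, and the log2 fold change was 0.28 with marker gates in place of clusters, the lowest, and 0.65 without vehicle replicate 1, the highest.

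Klra4, the other activator, followed with a log2 fold change of 0.36 ± 0.14 and an adjusted p of 0.711 in the same edgeR fit. Its AT38 values of 560.3 and 467 CPM overlapped the vehicle values of 482 and 334 CPM, and the change was 0.66 without vehicle replicate 1, past the threshold (adjusted p = 0.0070, edgeR; 0.0070 to 1.00 over 14 alternatives), and -0.01 with classes drawn by marker gates. Among the inhibitory genes, Klra7 measured 402 and 347 CPM in the AT38 libraries, and 379 and 407 CPM in the vehicle libraries (log2 fold change -0.06 ± 0.12). Klra9 measured 262 and 179.5 CPM with AT38, and 239 and 179.7 CPM with vehicle (0.11 ± 0.17). Klra1 and Klra3 gave -0.01 ± 0.23 and 0.39 ± 0.33. The groups overlapped for each of these 4 genes.

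The members outside the Ly49 genes had small differences in NK-like cells. Klrb1c measured 348 and 303 CPM with AT38, and 356 and 289 CPM with vehicle (log2 fold change 0.04 ± 0.14). Klrk1 measured 502 and 380.1 CPM with AT38, and 381 and 542 CPM with vehicle (-0.06 ± 0.14). Klrc1 had -0.12 ± 0.14 and Klrd1 -0.05 ± 0.12. The groups overlapped for each of these 4 genes.

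**Figure D5:**
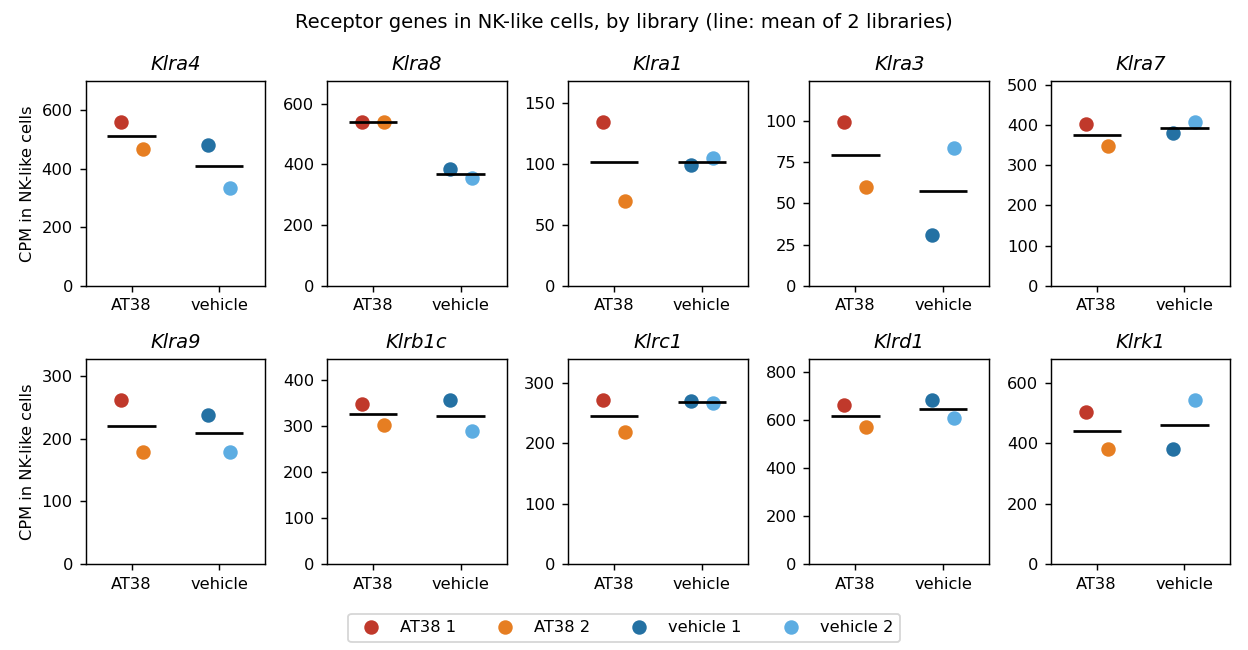
CPM of each receptor gene in NK-like cells, 1 panel per gene with its own axis from 0, AT38 libraries on the left and vehicle libraries on the right of each panel, with the mean of the 2 libraries as a line. Only in the Klra8 panel do both AT38 dots, 539 and 539.7 CPM, lie clear of both vehicle dots, 383 and 355 CPM, by more than the spread within either group.

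Levels of NK subset markers are given beside that of Klra8. Of the 7 tested genes of a list for type 1 innate lymphoid and resident cells, 0 were called, against 0.0438% of all genes. An unadjusted p under 0.05 was seen for 4 of the 7, against 5.92% of all genes, and all 4 were lower with AT38. The list's median log2 fold change was -0.32, against -0.00 over all genes. Cxcr6 measured 71.2 and 61.0 CPM in the AT38 libraries, and 92.7 and 118 CPM in the vehicle libraries (-0.68 ± 0.21, adjusted p = 0.533, edgeR). In the list of maturation genes 0 of 11 were called. An unadjusted p under 0.05 was seen for 4 of them, against the same 5.92% of all genes. Of these 4, 3 were higher with AT38 and Il7r was lower. That list's median log2 fold change was 0.13. Il7r measured 47.0 and 38.7 CPM with AT38, against 65.9 and 105 CPM with vehicle (-1.02 ± 0.25, adjusted p = 0.242, edgeR). Klra8 had 0 UMIs in the 30 thinned cells with Il7r and in the 24 with Cxcr6. The part of such cells in the Klra8 difference was not tested. In cells with a Gzma UMI the Klra8 shares were 44.7% and 41.6% in the AT38 libraries, and 34.0% and 33.3% in the vehicle libraries, with no overlap.

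Signalling partners and effector genes were read in the same fit. Of 15 tested adaptor and signalling genes 0 were called and 3 had an unadjusted p under 0.05, against 0.0438% and 5.92% of all genes. Those 3 were higher with AT38: Fyn, a kinase upstream of these adaptors, had 0.45 ± 0.13, Vav1 0.60 ± 0.25 and Syk 0.54 ± 0.26. Their list's median was 0.13. Tyrobp, the adaptor of the activating Ly49 receptors, measured 1052 and 1112 CPM with AT38, and 1073 and 866 CPM with vehicle, and Hcst, the NKG2D adaptor, 618 and 602 CPM with AT38 and 591 and 538 CPM with vehicle. Of 10 tested effector genes 1 was called, against 0.0438% of all genes. That gene, Xcl1, a chemokine for Xcr1 dendritic cells, rose to 1632 and 2045 CPM with AT38, against 1096 and 1294 CPM with vehicle (0.64 ± 0.12, adjusted p = 0.0241, edgeR). Xcl1 was not called in 3 of 14 alternatives: with DESeq2 (0.64, adjusted p = 0.0890), with no doublet removal (0.62, adjusted p = 0.114, edgeR) and without AT38 replicate 2 (0.47, adjusted p = 0.725, edgeR). Its log2 fold change was 0.47 to 0.99 over the 14, and its adjusted p 3.24e-08 to 0.725. No gene was called among 11 other receptors of the complex, 3 inhibitory phosphatases, 7 ligands, 11 other NK receptors and 9 transcription factors. Klrg1, H2-T23 and Ncr1 gave 0.01, -0.00 and 0.10.

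In CD8 T-like cells 5 of the 10 members passed the filter on low counts and 0 were called, against 0.0217% of 9214 genes, while 1 had an unadjusted p under 0.05, against 5.57% of genes. Klrc1 measured 287 and 269.65 CPM in the AT38 libraries, and 252 and 229.97 CPM in the vehicle libraries, without overlap (log2 fold change 0.23 ± 0.10, adjusted p = 0.887, edgeR). Its direction differed between sub-clusters tested alone, which were chosen after seeing the data. It was higher with AT38 in the Itgae sub-cluster (398 and 366 CPM, against 315 and 309 CPM with vehicle) and in the Ly6c2, Gzma and Gzmk sub-cluster (224 and 189 CPM, against 150.5 and 113 CPM). In the sub-cluster led by the haemoglobin genes Hbb-bs and Hba-a1 with Cd8a and Ccl1 it was lower (169 and 159 CPM, against 219 and 203 CPM). The log2 fold changes were 0.31, 0.70 and -0.33, with adjusted p of 0.928, 0.939 and 0.809 in edgeR. None of the 3 tested members was called in any of them, against 0.0%, 0.0208% and 0.0673% of genes, and the difference between sub-clusters was not tested.

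Klrd1 and Klrk1 overlapped between the groups in CD8 T-like cells. Klrd1 measured 640.4 and 691 CPM with AT38, and 651 and 667 CPM with vehicle (0.04 ± 0.09), and Klrk1 133 and 159 CPM with AT38, and 169 and 142 CPM with vehicle (-0.04 ± 0.13). Klra7 and Klra3 rested on 59 and 54 UMIs in all and are not interpreted. In the lists, 0 of 10 other complex receptors were called, against 0.0217% of all genes. Of these 10, Klri2 and Klrc2 had an unadjusted p under 0.05, against 5.57% of all genes, and were higher (0.39 ± 0.12 and 0.33 ± 0.13). Klrc2 shares 3′ stretches with Klrc1. Hcst had 0.28 ± 0.09 with an adjusted p of 0.887 in edgeR, and 0 of 14 adaptor and signalling genes were called.

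Over all T-like cells 8 members were tested and 0 called, against 0.239% of 10473 genes, and 1 had an unadjusted p under 0.05, against 6.8%. Klrc1 measured 165 and 173 CPM in the AT38 libraries, and 132 and 139 CPM in the vehicle libraries, without overlap (0.34 ± 0.09, adjusted p = 0.108, edgeR). It passed the threshold with the replicate block, with no filter on low counts and with no doublet removal (adjusted p 0.0350 to 1.00 over 14 alternatives, edgeR or DESeq2). Klra1, at -0.56 ± 0.28, passed it without AT38 replicate 1 only, at -1.16. CD8 T-like cells, where Klrc1 is high, were 356 and 453 of 832 and 1005 T-like cells in the AT38 libraries, and 186 and 371 of 526 and 918 in the vehicle libraries. The share of the difference that this carries was not tested. The value in CD8 T-like cells alone is the smaller one given above.

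In the other T-like cluster 8 members were tested and 0 called, against 0.125% of 5599 genes, and 0 had an unadjusted p under 0.05, against 5.7%. DESeq2 also called 0 of the 8 members there. Klra7 measured 196 and 287 CPM with AT38, and 225 and 215 CPM with vehicle (0.16 ± 0.18), and Klra1 106 and 86.4 CPM with AT38, and 138 and 119 CPM with vehicle (-0.37 ± 0.24, adjusted p = 0.916, edgeR). The Klra1 groups did not overlap, and those of Klra7 did. In CD4 conventional T-like cells 3 members were tested and in regulatory T-like cells 1, and none was called, against 0.0779% and 0.223% of genes. In 3 sub-clusters of the CD4 class none was called, against 0.0621%, 0.0% and 0.0398%. In naive-like T cells no member passed the filter on low counts (0.0852% of genes were called), and gamma-delta T-like cells, with 19 cells in 1 library, were not tested.

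The difference between the AT38 effect in NK-like and in CD8 T-like cells was tested with an interaction term in edgeR. Of the 10 members 0 were called, against 0.0356% of 8431 genes, and 1, Klrc1, had an unadjusted p under 0.05, as did 438 of the 8431 genes. Klrc1 differed by -0.35 ± 0.17 (log2, NK-like minus CD8 T-like, adjusted p = 0.956, edgeR) and Klra7 by 0.77 ± 0.40, which rests on few CD8 UMIs. For Klra8 and Klra4, at 1 and 4 UMIs in CD8 T-like cells, the term had an SE above 1 and is not interpreted.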

How the data were processed

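Deposited were raw UMI counts, one matrix a library, which the authors produced using Cell Ranger 3.1.0 and mm10, per the submitters' processing notes; the annotation release is not given in the sources used here. Barcodes needed 200 genes, 500 UMIs and a mitochondrial share of 10% or less, and the highest doublet scores were removed at 0.8% per 1000 barcodes. Cells were clustered with scanpy 1.11.5 on 2000 variable genes without Klr genes, and T and NK clusters were clustered again. Counts were summed per library and class, where every library had at least 20 cells, and tested with edgeR 4.0.16 (TMM, quasi-likelihood) after checks on simulated counts. For simulated log2 fold changes of 1 in either direction, 53.3% of genes were called in NK-like and 74.0% in CD8 T-like counts. For changes of 2 the shares were 96.8% and 97.9%, with 6 false calls in each class. Many changes of the smaller size would thus be missed in NK-like cells. DESeq2 1.42.0, other filters, other class definitions, a replicate block and leaving out each library were alternatives. Libraries of 1 group differed beyond sampling noise (chi-square per degree of freedom 1.61 to 3.07). NK-like cells had 485455 to 852355 UMIs per library. Shares cover counting error only, and p-values measure the spread between pools.

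Named are all members, up to 4 genes of each list by smallest p in the NK-like or CD8 T-like fit, called list genes, genes most like a member, and Ncr1, Tyrobp, Hcst, H2-T23 and Klrg1. Klra6, the ligand levels and the epithelial-like and dendritic-like contrasts were chosen after their values were seen. Members and lists were chosen with earlier results of these data known. Positions come from GENCODE M21 and promoter windows from RefSeq, GRCm38.p6.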

Additional observations from a re-analysis of the deposited data

How the results depend on the processing

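In NK-like cells 3 genes were called, against 1 with DESeq2, 13 with no filter on low counts, 19 with the replicate block, 0 with no doublet removal and 6 with Klr genes kept for clustering, and 5 to 25 when 1 library was left out. Members called there were 0, against 1 with no filter, 1 with the replicate block (Klra8 in both) and 0 to 2 when 1 library was left out. In CD8 T-like cells 2 genes were called, against 29 with no filter, 35 with the replicate block, 4 with at least 500 genes per cell, 1 each with marker gates, a 20% mitochondrial limit, no doublet removal and Klr genes kept, and 2 to 31 when 1 library was left out, with 0 members throughout. Over all T-like cells 25 genes were called, against 7 with DESeq2, 73 with no filter, 72 with the replicate block, 4 with marker gates, 16 with at least 500 genes and 10 to 103 when 1 library was left out; members were 0, against 1 with no filter, the replicate block and no doublet removal, and 0 to 1 when 1 library was left out. Same-numbered libraries deviated with correlations of -0.02, 0.02 and 0.03. These values show no pairing by number, but with 2 libraries per group they cannot exclude it.

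In the main fits 0 members were called, so every sign that turned was that of a member not called there. Among these, Klra4 in NK-like cells was 0.66 without vehicle replicate 1 and turned with marker gates. Klrc1 over all T-like cells passed the threshold under 3 alternatives and turned in the other T-like cluster alone. In NK-like cells Klra1 was 0.0097 with DESeq2, 0.017 with no filter, 0.051 with marker gates, 0.076 with at least 500 genes, 0.035 with no doublet removal, 0.099 with Klr genes kept and -0.52 to 0.42 when 1 library was left out. With marker gates Klra4 was -0.0091, Klra7 0.24, Klrb1c -0.026 and Klrd1 0.19, and with Klr genes kept Klra7 was 0.11 and Klrb1c -0.011. In CD8 T-like cells Klra7 was 0.23 with marker gates and 0.31 with Klr genes kept, and Klrk1 was 0.12 with marker gates and 0.014 with a 20% mitochondrial limit. In the haemoglobin-led sub-cluster alone Klrc1 was -0.33 and Klrd1 -0.019, and in the Gzmk sub-cluster alone Klrd1 was -0.014 and Klrk1 0.09995. Over all T-like cells Klrk1 was 0.022 with marker gates and 0.0023 with a 20% mitochondrial limit, and in the other T-like cluster alone Klra7 was 0.16, Klra9 0.35 and Klrc1 -0.0017. When 1 library was left out, log2 fold changes ranged as follows. In NK-like cells they were for Klra3 -0.049 to 1.355, Klra7 -0.15 to 0.048, Klra9 -0.17 to 0.36, Klrb1c -0.12 to 0.21, Klrc1 -0.26 to 0.039, Klrd1 -0.14 to 0.061 and Klrk1 -0.26 to 0.22. In CD8 T-like cells they were for Klra3 -0.41 to 1.131, Klrd1 -0.032 to 0.11 and Klrk1 -0.19 to 0.094. In all T-like cells they were for Klra3 -0.31 to 0.95, Klra9 -0.89 to 0.37, Klrb1c -1.001 to 0.16 and Klrk1 -0.098 to 0.043. The causes were not tested.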
